A study of Mus musculus with 9 samples.

Results

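The Notch genes described here are the receptors Notch1, Notch2 and Notch3, the ligands Dll1, Dll3 and Jag1, and the target genes Hes1, Hes5, Hey1 and Hey2. They were taken by gene symbol in the platform annotation, which gave 10 genes with 16 probe sets, of 18193 genes with 34945 probe sets in all. Affymetrix mouse arrays measured RNA of 9 samples of cultured cells, 3 for each group, and signals are intensities on a linear scale. The glioma stem cells were grown out of optic gliomas (tissue source optic nerve) from C57BL/6 mice, 3 months old, whose labelled genotype is Nf1+/-GFAP CKO. GFAP is a gene of astroglial cells, and the labels do not say more of the allele or of the cells in which it acts. Nf1-null neural stem cells (NSC) were grown from the zone around the third ventricle of C57BL/6 pups at postnatal day 1, genotype Nf1flox/flox, and had received a Cre virus. Wild-type NSC came from pups of the same strain, age and genotype and had received a control LacZ virus, so they too carry floxed Nf1 alleles and were exposed to a virus. Cells of all 3 groups grew unattached in medium holding EGF and FGF at 20 ng/ml each. Tumour origin, age, tissue, virus and genotype all set the glioma stem cells apart from either NSC group, and their effects cannot be told apart here. Separate cultures are stated for the NSC groups but not for the tumour-derived group, so p-values measure only the spread between these samples.

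Notch receptors are cleaved when a neighbouring cell presents a Delta-like or Jagged ligand, and the freed intracellular part joins the DNA-binding protein RBPJ and Mastermind co-activators in the nucleus. The complex switches on Hes and Hey genes, whose products are basic helix-loop-helix repressors of proneural genes such as Neurog2. In the developing brain this signalling is known for keeping neural stem cells undifferentiated, with ligands made by neighbouring cells that begin to differentiate.

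Every array had the same mean signal after the lowest and highest probe sets were left out, and median signals lay between 264.7 and 287.4. Across the 9097 brighter genes, those at or above the median gene's mean log2 signal of 9.27, glioma stem cell arrays 2 and 3 correlated at 0.989, while array 1 correlated with them at 0.950 and 0.944. Array 2 of the Nf1-null NSC correlated with the others of its group at 0.947 and 0.938, and those with each other at 0.954. Wild-type NSC arrays correlated with each other at 0.951 to 0.964, close to the values of glioma stem cell array 1. Values without glioma stem cell array 1 or Nf1-null NSC array 2 are given beside many of the results. They are not always the largest shift, and several stand beside the range found on leaving out any 1 array. Calls lost without other arrays are given with the counts. The targeted gene Nf1 had signals of 622.6, 600.1 and 548.9 in glioma stem cells, 430.3, 645.8 and 577 in Nf1-null NSC, against 1139.5, 919.5 and 999.9 in wild-type NSC. In limma's test, described below, Nf1-null minus wild-type NSC was -0.90 in log2 and did not pass (adjusted p = 0.123). Nf1 signal was lower there but not absent, so the arrays do not by themselves show loss of Nf1. The 10 neural stem cell markers examined all lay among the brighter genes, with Sox2 at 28137.3 or more in glioma stem cells, 36994 or more in Nf1-null NSC and 42161.7 or more in wild-type NSC. None of 10 endothelial and none of 10 microglial markers lay among the brighter genes, and of 9 mural cell markers 1 did, Acta2.

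Promoters of Hes5 and Hey2 are shown because both genes had their highest signals in wild-type NSC and because both windows hold the letters of an RBPJ core site, GTGGGAA. The sequences are from RefSeq (GRCm38.p6), 5′ to 3′ on the gene's strand, with 250 bases before the annotated start and 10 after it. Capitals mark GTGGGAA or its reverse complement. The Hes5 stretch is chr4:154960673-154960932 on the plus strand and the Hey2 stretch is chr10:30842774-30843033 on the minus strand.
Hes5: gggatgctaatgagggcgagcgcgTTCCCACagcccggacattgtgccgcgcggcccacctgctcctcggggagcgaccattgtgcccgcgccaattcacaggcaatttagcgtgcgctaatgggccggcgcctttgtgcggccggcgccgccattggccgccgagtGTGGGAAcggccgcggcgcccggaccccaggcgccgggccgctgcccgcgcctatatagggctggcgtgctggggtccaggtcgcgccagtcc
Hey2: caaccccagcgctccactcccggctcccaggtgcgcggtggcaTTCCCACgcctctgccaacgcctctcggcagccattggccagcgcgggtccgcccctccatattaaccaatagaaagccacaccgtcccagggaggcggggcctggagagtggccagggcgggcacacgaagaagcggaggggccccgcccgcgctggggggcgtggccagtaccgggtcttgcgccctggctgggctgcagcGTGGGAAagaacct

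In Hes5 the matches begin at positions -226 (reverse complement) and -83 (as written), and in Hey2 at positions -207 (reverse complement) and -4 (as written), counted from the annotated start. Windows of 300 bases were found for 8 of the 10 genes, 9 windows in all. GTGGGAA, searched on both strands, was found in the windows of Hes5 and Hey2, with 2 matches each, and not in those of Notch1, Notch2, Notch3, Dll1, Dll3 and Jag1. Of all 32851 promoter windows 6.38% held at least 1 match and 0.256% held 2 or more. CACNAG, the N-box that Hes proteins are known to bind, had 3 matches in the Notch1 window, 2 in that of Notch3, 1 in that of Notch2 and 1 in 1 of the 2 windows of Dll1. It had none in the windows of Dll3, Jag1, Hes5 and Hey2, and 42.5% of all windows held it. A match describes the letters only and shows no binding.

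Against wild-type NSC, glioma stem cells had less Notch2, Hey1 and Hey2 and more Hes1, the 4 Notch genes that passed the test. Hey2 fell most of these, 10.03-fold, followed by Notch2 (4.05-fold) and Hey1 (2.90-fold), and Hes1 rose 1.84-fold. Jag1 was 5.30-fold higher and Dll1, Hes5, Dll3 and Notch3 were 4.30-fold, 9.27-fold, 2.36-fold and 2.01-fold lower without passing. In all, 8 of the 10 genes were negative, with a median log2 difference of -1.39, against -0.09 over all genes. These are cultures measured in bulk, so fewer cells of a type and less RNA per cell cannot be told apart. The test was limma's moderated test on log2(value + 1) with Benjamini-Hochberg adjustment over all genes at 0.05, which called 9.06% of all genes in this comparison (3.46% higher, 5.6% lower), against 4 of the 10 Notch genes (1 higher, 3 lower). Signals of the groups did not overlap for 6 genes that were lower and 2 that were higher, where 20.9% of all genes were lower and 13.9% higher without overlap.

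**Figure D1:**
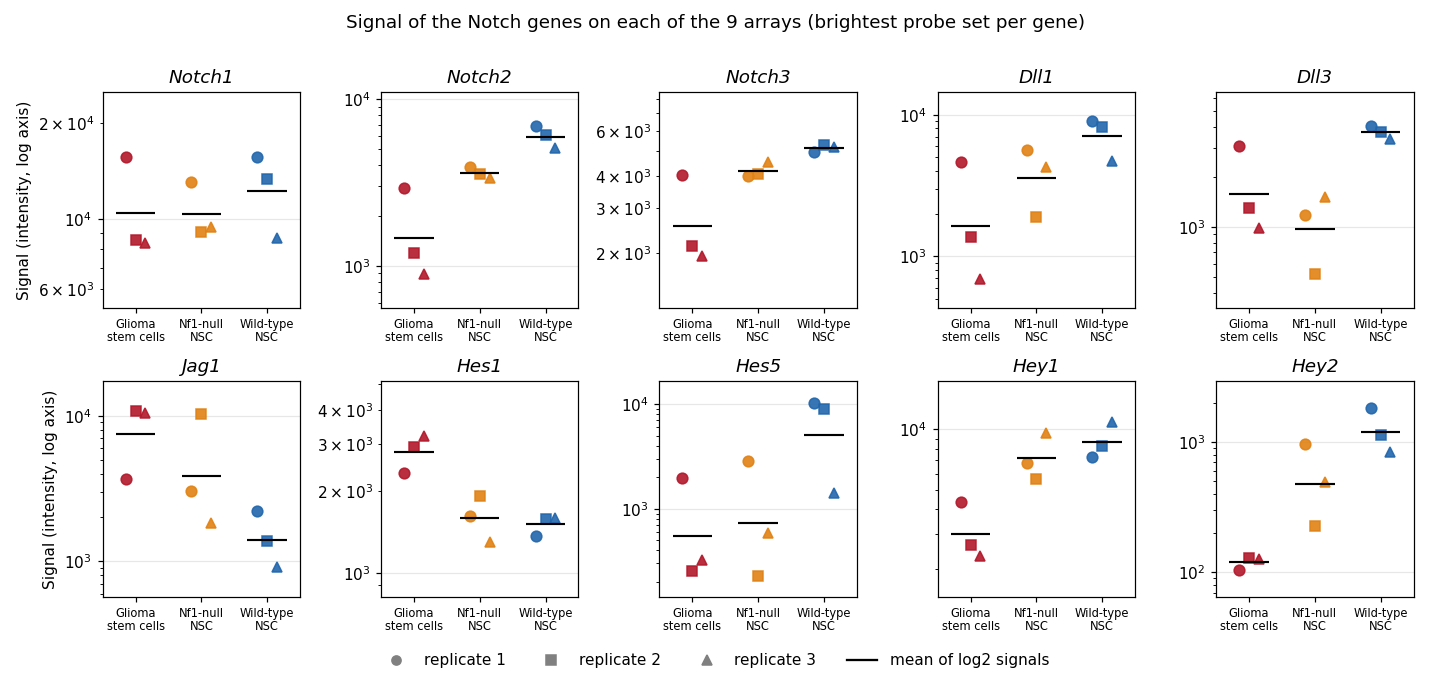
Signal intensity (log axis) of the 10 Notch genes on each array, by group from glioma stem cells through Nf1-null NSC to wild-type NSC, with replicate 1 as circles, 2 as squares and 3 as triangles, and bars at the mean of log2 signals. Notch2, Hey1 and Hey2 sit lowest on the glioma stem cell arrays, Hes1 sits highest there, and Jag1 sits highest on glioma stem cell arrays 2 and 3 and on Nf1-null NSC array 2.

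Leaving out single arrays moved the count of 4 along with the calls over all genes. Without glioma stem cell array 1, 6 genes passed, Notch3 and Dll1 being added, where 9.65% of all genes passed. Without glioma stem cell array 2, glioma stem cell array 3 or wild-type NSC array 2, 0 passed, where 1.19%, 1.44% and 1.18% of all genes did. Without wild-type NSC array 1 or 3, or in the 6 arrays of the groups compared, 1 passed, Hey2, where 4.83%, 2.52% and 5.66% of all genes did. With a mean-variance trend, where 14.7% of all genes passed, 7 did, and with the replicate number as a block, where 8.44% passed, 3 did. Among the brighter genes alone, where 27.2% passed, 6 of 9 Notch genes did, and with the block as well, where 33.1% passed, 7 of 9 did. Hey2 is the 1 not among the brighter genes.

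Receptors differed among themselves. Notch1, the receptor best known from neural stem cells, had signals of 15642.9, 8587.2 and 8370.5 in glioma stem cells, 13056.7, 9074.9 and 9409.9 in Nf1-null NSC, against 15596.3, 13354.3 and 8724.5 in wild-type NSC. The groups overlapped throughout, and array 1 was the highest of each group. Its log2 differences were -0.23 for glioma stem cells minus wild-type NSC (95% interval -0.99 to 0.53), 0.00 for glioma stem cells minus Nf1-null NSC (-0.76 to 0.77) and -0.23 for Nf1-null minus wild-type NSC (-0.996 to 0.53). These intervals leave room for changes of either sign.

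Notch2, a receptor expressed alongside Notch1 in neural stem cells, had signals of 2945.5, 1194.1 and 892.8 in glioma stem cells, 3918.1, 3566.2 and 3341.3 in Nf1-null NSC, against 6857.7, 6052.7 and 5051.7 in wild-type NSC. No group overlapped another, so the order was glioma stem cells, then Nf1-null NSC, then wild-type NSC from low to high. Its log2 difference from wild-type NSC was -2.02 (SE 0.41, adjusted p = 0.0286). It was -2.52 without glioma stem cell array 1, and -2.52 to -1.66 leaving out any 1 array. The neighbours in that order did not differ past the threshold, at -1.30 for glioma stem cells minus Nf1-null NSC (SE 0.41, adjusted p = 0.174) and -0.72 for Nf1-null minus wild-type NSC (SE 0.41, adjusted p = 0.415). Without glioma stem cell array 1 the first of these passed, at -1.80 (adjusted p = 0.0114), and leaving out any 1 array it was -1.80 to -0.94.

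Notch3, a receptor best known from mural cells of blood vessels and also made by neural progenitors, had signals of 4034.7, 2131.1 and 1960.1 in glioma stem cells, 4010.2, 4065.9 and 4517.3 in Nf1-null NSC, against 4977.5, 5288.4 and 5188 in wild-type NSC. Glioma stem cell array 1 was level with Nf1-null NSC, and arrays 2 and 3 were lower than every NSC array. The difference from wild-type NSC was -1.01 (SE 0.27, adjusted p = 0.0596) and missed the threshold. It passed without glioma stem cell array 1, at -1.33 (adjusted p = 0.00593), and was -1.33 to -0.81 leaving out any 1 array. Glioma stem cells minus Nf1-null NSC gave -0.71 (adjusted p = 0.252), and -1.04 (adjusted p = 0.0175) without glioma stem cell array 1. Leaving out any 1 array gave -1.04 to -0.52 there. Summed signals of the 9 mural cell markers were 682.5 to 1081.3 in glioma stem cells, 1379.4 to 2112.4 in Nf1-null NSC, against 1310.7 to 2172.5 in wild-type NSC. Acta2 alone had mean signals of 269.3, 1019 and 975.8 in these groups and makes up much of the difference of the sums. Against wild-type NSC 3 of the 9 markers were positive and 6 negative, with a median log2 difference of -0.16. Of these 9 markers 0 rose and 1, Acta2, fell relative to wild-type NSC, where 3.46% of all genes rose and 5.6% fell. The highest signal of a marker on any array ranged between 21.5 for Abcc9 and 1302.9 for Acta2, with Pdgfrb at 68.1 and Des at 462.6. The part of such cells in the Notch3 values was not tested.

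Among the ligands, both Delta-like genes had their highest group mean in wild-type NSC and Jag1 its lowest there. Dll1, a ligand that activates Notch in neighbouring cells, had signals of 4643.1, 1361.2 and 692.2 in glioma stem cells, 5631.5, 1895.9 and 4305.1 in Nf1-null NSC, against 8995.5, 8157.3 and 4752.2 in wild-type NSC. Glioma stem cell array 1 was only just below the lowest wild-type NSC array, and arrays 2 and 3 were well below it. The difference was -2.10 (SE 0.72, adjusted p = 0.111), and -2.86 (adjusted p = 0.0284) without array 1. It was -2.86 to -1.48 leaving out any 1 array. Nf1-null minus wild-type NSC was -0.97 (SE 0.72, adjusted p = 0.536), and -0.52 without Nf1-null NSC array 2.

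Dll3, a divergent family member known to hold Notch signalling down within the cell that makes it, followed another order. Its signals were 3095.2, 1298.4 and 980.6 in glioma stem cells, 1175, 517.8 and 1519.9 in Nf1-null NSC, against 4052.5, 3749.2 and 3393.3 in wild-type NSC. Wild-type NSC were above every other array, and glioma stem cells and Nf1-null NSC overlapped. Nf1-null NSC had the lowest group mean, 3.82-fold below wild-type NSC (log2 -1.93, SE 0.51, adjusted p = 0.170), and at -1.48 without Nf1-null NSC array 2. Glioma stem cells were at -1.24 from wild-type NSC (SE 0.51, adjusted p = 0.176). They were at -1.72 to -0.89 leaving out any 1 array, the -1.72 being without glioma stem cell array 1. They were at 0.70 from Nf1-null NSC (SE 0.51, adjusted p = 0.554), and at 0.21 without that array or 0.24 without Nf1-null NSC array 2.

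Jag1, the Jagged ligand of this set, had signals of 3674.8, 10759.1 and 10477.5 in glioma stem cells, 3045.5, 10189.5 and 1844.9 in Nf1-null NSC, against 2213.4, 1375.1 and 911.6 in wild-type NSC. Nf1-null NSC array 2 was at the level of glioma stem cell arrays 2 and 3, and the other Nf1-null NSC arrays were near or within the wild-type range. Glioma stem cells minus wild-type NSC was 2.41 (SE 0.71, adjusted p = 0.0763) without overlap. Nf1-null minus wild-type NSC was 1.46 (SE 0.71, adjusted p = 0.350), and 0.75 without Nf1-null NSC array 2. Leaving that array out, which lowers the pooled spread, brought the glioma stem cell difference past the threshold at the same size (adjusted p = 0.0429). The 3 arrays with the highest Jag1 signals, glioma stem cell arrays 2 and 3 and Nf1-null NSC array 2, were also the 3 with the lowest Dll1 and the 3 with the lowest Hes5, an overlap picked out after the values were seen.

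The Hes and Hey genes did not move as 1 block. Hes1, the Hes gene that signals other than Notch are also known to induce, had signals of 2331.4, 2910.4 and 3189.3 in glioma stem cells, 1624.2, 1918.2 and 1301.8 in Nf1-null NSC, against 1372, 1580.4 and 1589.5 in wild-type NSC. Every glioma stem cell array was above every NSC array. The rise over wild-type NSC was 0.88 (SE 0.20, adjusted p = 0.0367). It was 1.01 without glioma stem cell array 1, and 0.79 to 1.01 leaving out any 1 array. Against Nf1-null NSC it was 0.80 (SE 0.20, adjusted p = 0.107), and the NSC groups lay 0.08 apart (SE 0.20, 95% interval -0.39 to 0.54, adjusted p = 0.881).

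Hes5, the Hes gene most tightly tied to Notch in neural stem cells, had the widest range of the 10 genes, 45.0-fold between arrays. Its signals were 1971.4, 255.2 and 323.6 in glioma stem cells, 2853.3, 229.7 and 592.4 in Nf1-null NSC, against 10336.5, 8940.2 and 1411.9 in wild-type NSC. Wild-type NSC array 3 was far below the other arrays of its group and lay within the range of the other groups, and array 1 was the highest of each group. Differences from wild-type NSC were -3.21 for glioma stem cells (SE 1.23, adjusted p = 0.146) and -2.79 for Nf1-null NSC (SE 1.23, adjusted p = 0.306), neither past the threshold. Without wild-type NSC array 3 they were -4.13 and -3.72 (adjusted p = 0.112 and adjusted p = 0.299). Without Nf1-null NSC array 2 the difference of the NSC groups was -1.96, and without glioma stem cell array 1 that of glioma stem cells was -4.14. The latter was -4.14 to -2.66 leaving out any 1 array. The groups differed by -0.42 between glioma stem cells and Nf1-null NSC (95% interval -3.27 to 2.43).

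Hey1, a repressor gene that Notch induces, had signals of 4345.3, 2650.2 and 2315.9 in glioma stem cells, 6822.3, 5667.5 and 9584.8 in Nf1-null NSC, against 7304.7, 8212.6 and 10889.9 in wild-type NSC. Glioma stem cells lay below every NSC array, and the NSC groups overlapped. Its log2 difference from wild-type NSC was -1.54 (SE 0.31, adjusted p = 0.0282). It was -1.81 without glioma stem cell array 1, and -1.81 to -1.35 leaving out any 1 array. Against Nf1-null NSC it was -1.27 (SE 0.31, adjusted p = 0.102). Without glioma stem cell array 1 that was -1.54, which passed (adjusted p = 0.0381), and leaving out any 1 array it was -1.54 to -1.06. The NSC groups differed by -0.27 (SE 0.31, adjusted p = 0.702).

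Hey2, a related repressor gene with roles in heart and vessel development, had signals of 103.7, 129.9 and 127.1 in glioma stem cells, 972.6, 225.4 and 492.7 in Nf1-null NSC, against 1837.1, 1142.1 and 842.7 in wild-type NSC. In glioma stem cells it was below the arrays' own median signals of 269.2, 267.4 and 276.2, so its fold there rests on dim values. Its log2 difference from wild-type NSC was -3.33 (SE 0.52, adjusted p = 0.0162), and -3.18 with a pseudocount of 16. It was -3.22 without glioma stem cell array 1, and -3.59 to -3.03 leaving out any 1 array. Glioma stem cells were also below every Nf1-null NSC array, at -1.98 (SE 0.52, adjusted p = 0.119), and Nf1-null minus wild-type NSC was -1.34 (SE 0.52, adjusted p = 0.257), and -0.80 without Nf1-null NSC array 2.

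**Figure D2:**
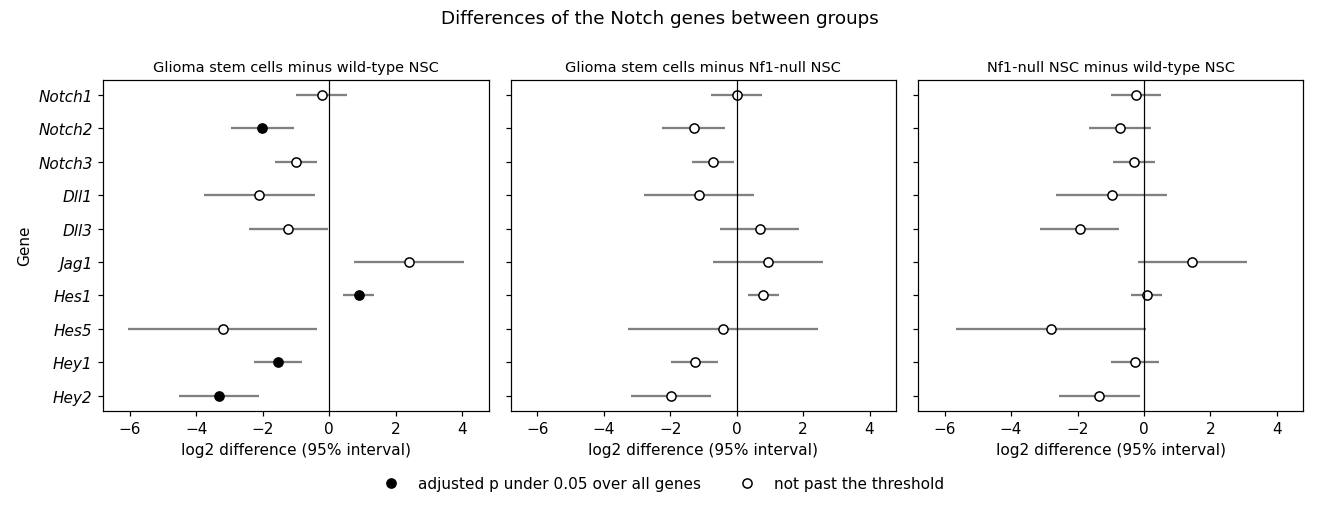
Log2 differences of the 10 Notch genes with 95% intervals (limma, not adjusted for multiple tests) for glioma stem cells minus wild-type NSC, glioma stem cells minus Nf1-null NSC and Nf1-null minus wild-type NSC; filled points passed an adjusted p of 0.05. Notch2, Hes1, Hey1 and Hey2 are filled in the leftmost panel and no gene is filled in the others, and the Hes5 intervals are the widest.

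Glioma stem cells were compared with Nf1-null NSC to set the tumour-derived cells beside stem cells made Nf1-null in culture. Here 0 of the 10 Notch genes passed, where 1.75% of all genes did (0.671% higher, 1.08% lower). Hey2, Notch2 and Hey1 were lower without overlap, at 3.96-fold, 2.46-fold and 2.40-fold, and Hes1 was higher without overlap, at 1.75-fold. Over all genes 12.7% were lower and 9.24% higher without overlap. At an unadjusted p under 0.05 stood 5 of the 10 genes, Notch2, Notch3, Hes1, Hey1 and Hey2, where 16.5% of all genes did. Hes1 and Hey1 passed when the fit used a mean-variance trend or only the brighter genes, where 4.05% and 6.67% passed. Without glioma stem cell array 1 Notch2, Notch3 and Hey1 passed, where 3.96% of all genes did. Without glioma stem cell array 2 or 3, 0 of the 10 passed, where 74 and 77 of all 18193 genes did. Deviations of same-numbered arrays of these groups correlated only weakly, at 0.30, 0.12 and 0.11, and differently numbered arrays reached 0.11. These groups come from different mice, so pairing is not shown and the block is only an alternative. With the replicate number as a block, where 1.06% of all genes passed (193 genes, against 319 without it), 0 of the 10 passed, and with the block among the brighter genes, where 10.4% passed, Notch2 (adjusted p = 0.0341), Hes1 (adjusted p = 0.0313) and Hey1 (adjusted p = 0.0369) did.

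The Nf1-null and wild-type NSC share strain, age and floxed genotype and differ in the virus given. None of the 10 Notch genes passed, nor did any gene of the 18193 in limma's test of this comparison (0% called). At an unadjusted p under 0.05 stood Dll3 and Hey2, where 16.8% of all genes did. With the mean-variance trend or among the brighter genes, where 1.81% and 4.38% passed, 0 Notch genes passed as well. The median log2 difference of the 10 genes was -0.51, against -0.06 over all genes, and 8 were negative. Notch2, Notch3 and Dll3 were lower without overlap and no Notch gene was higher, where 14.1% of all genes were lower and 9.75% higher. Same-numbered arrays of both NSC groups deviated together, and they were read as pairs in the counts that follow. Standard errors and adjusted p-values given gene by gene for this comparison come from the fit without a block. In every same-numbered pair Notch2, Notch3, Dll1, Dll3, Hes5, Hey1 and Hey2 were lower in the Nf1-null array, 7 of 10 genes, where 27.7% of all genes were. Jag1 was higher in every pair, where 20.9% of all genes were. With the replicate number as a block 0 of the 10 passed, as without it, and with the block among the brighter genes alone, where 11.9% passed, Dll3 (adjusted p = 0.0329) and Hes5 (adjusted p = 0.0461) passed.

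Of the 10 genes, Notch1, Notch2, Notch3, Jag1 and Hes5 had several probe sets. Both Hes5 probe sets were negative against wild-type NSC in glioma stem cells, at -2.52 and -3.21, and in Nf1-null NSC, at -2.29 and -2.79. The brighter of these carries the suffix of probes that may also bind other transcripts. All 3 Jag1 probe sets were higher in glioma stem cells than in wild-type NSC without overlap, by 1.93, 2.36 and 2.41. Against wild-type NSC, the Notch3 probe sets gave -0.97 and -1.01 in glioma stem cells, and the Notch2 probe sets -0.93 for the dim set and -2.02 for the bright set. Against Nf1-null NSC the Notch2 probe sets disagreed in sign, at 0.24 and -1.30. The Notch1 probe sets disagreed in sign against wild-type NSC, at 0.12 and -0.23, both within their spread. With the mean of all probe sets Notch2 no longer passed, at -1.47 (adjusted p = 0.0599).

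Other genes of the pathway were read from lists of 75 genes, of which 69 were measured and 6 are not analysed here. Against wild-type NSC, 13 of the 69 passed in glioma stem cells, 4 higher and 9 lower, where 9.06% of all genes passed, 3.46% higher and 5.6% lower. Counts of 1 in a list lie near that share. Of 8 other receptors and ligands 0 rose and 1 fell, Notch4. Of 26 genes of ligand and receptor processing 2 rose and 3 fell. Of 14 genes of the nuclear complex 0 rose and 1 fell, Sirt1. Of 12 further genes, of the Hes/Hey family, Notch targets and Groucho family co-repressors, 1 rose and 1 fell. These were the co-repressors Tle2, which rose, and Tle4, which fell. Of 9 proneural genes and genes downstream of them 1 rose, Neurod1, and 3 fell, Neurog2, Myt1 and Gadd45g. The median log2 differences of these 5 lists were -0.71, -0.22, -0.27, -0.21 and -0.71, against -0.09 over all genes.

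The 6 of these genes with the smallest p were Neurod1, Tle2, Dtx4, Dtx3, Neurog2 and Tle4. Dtx4, a member of the Deltex family of ubiquitin ligases that act on Notch, had signals of 4938.8, 3752.9 and 3431.3 in glioma stem cells, against 12423.2, 13708.7 and 9424.7 in wild-type NSC, and fell 2.93-fold (adjusted p = 0.0128). Its relative Dtx3 fell 2.17-fold (adjusted p = 0.0145). The Groucho family co-repressors that Hes proteins recruit moved in opposite directions. Tle4 fell 3.46-fold (adjusted p = 0.0195), with signals of 7148, 3197.6 and 4377.1 in glioma stem cells, against 14784.7, 20417.5 and 13686.9 in wild-type NSC. Tle2 rose 3.40-fold (adjusted p = 0.0114), and Tle1 and Tle3 were at -0.46 and 0.39 without passing.

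Among the proneural and downstream genes Neurod1, a factor of neuronal differentiation, rose 18.5-fold over wild-type NSC (adjusted p = 0.0046). Its signals were 5128.4, 2797.5 and 2675.9 in glioma stem cells, against 190.3, 182.3 and 172.3 in wild-type NSC. The wild-type signals lay below their arrays' medians, so the fold rests on a dim baseline, and with a pseudocount of 16 it was 17.2-fold. Neurog2, a proneural factor that Hes proteins are known to repress, fell (adjusted p = 0.0145) at dim signals of 7.1, 30 and 6.8 in glioma stem cells, against 111.6, 254.5 and 150.1 in wild-type NSC. Its size depends on the pseudocount, with a log2 difference of -3.71 at 1 and -2.63 at 16, and is no measured fold. Called genes of the proneural list moved in both directions while Hes1 was higher and Hey1 and Hey2 were lower. Neurl1a and Neurl1b, relatives of a fly ligase that acts on Notch ligands, rose 2.05-fold and 4.55-fold, and Mib2, Myt1 and Gadd45g fell, named outside the rule of the 6 smallest p. Rbpj, the DNA-binding partner of all Notch receptors, had signals of 4350.7, 3877.4 and 3675 in glioma stem cells, against 5701.2, 6116 and 5284 in wild-type NSC, at -0.52 without passing. Nrarp, a direct Notch target and feedback inhibitor, was at -1.65 without passing. The count of 13 was 2 without wild-type NSC array 2, where 1.18% of all genes passed. It was 3 without glioma stem cell array 2 or 3, where 1.19% and 1.44% did. Without wild-type NSC arrays 1 and 3 it was 7 and 6, where 4.83% and 2.52% did. Without glioma stem cell array 1 it was 16, where 9.65% did.

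**Figure D3:**
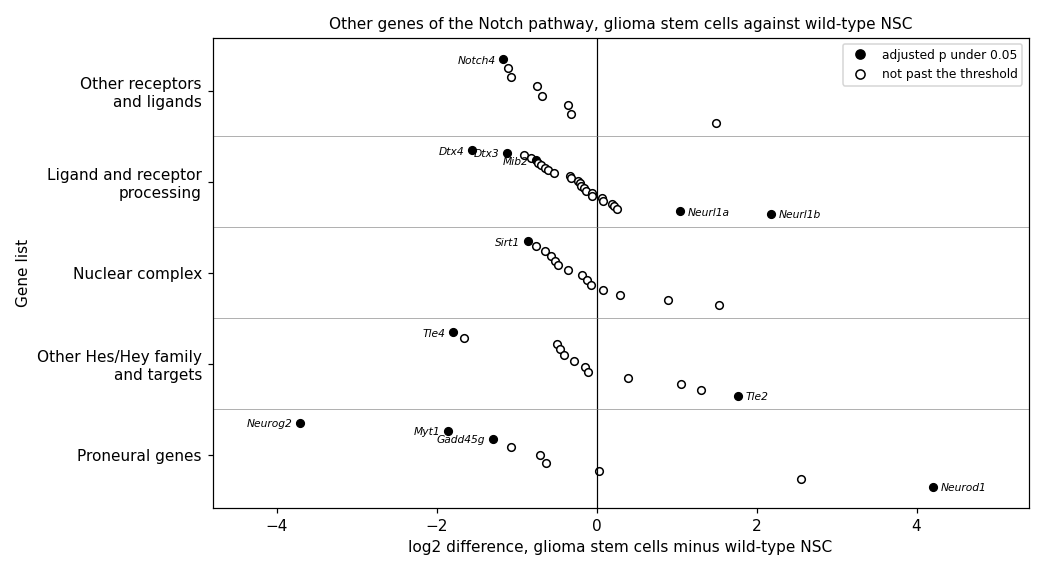
Log2 differences, glioma stem cells minus wild-type NSC, of the 69 other pathway genes measured, in 5 lists, each ordered by difference; filled, named points passed an adjusted p of 0.05. Of these, 13 are filled, 4 to the right of 0 and 9 to the left, and Neurog2 and Neurod1 lie at the extremes of -3.71 and 4.21. The list of Hes/Hey family and targets also holds Groucho family co-repressors, and the proneural list also holds downstream genes.

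Between glioma stem cells and Nf1-null NSC, 1 of the 69 passed, where 1.75% of all genes did. It was Neurod1 (20.0-fold higher, adjusted p = 0.00493), again over a dim baseline. The smallest p in the other lists belonged to Cntn1 (log2 3.80, adjusted p = 0.0766) and Notch4 (-0.42), to Dtx4 (-1.02, adjusted p = 0.0779) and Mib2 (-0.63), to Maml1 (-0.74) and Rbpj (-0.47), and to Tle4 (-1.54, adjusted p = 0.0568) and Tle2 (0.87). Maml1 encodes a Mastermind co-activator, and Cntn1 a cell surface protein described as a Notch ligand. Between Nf1-null and wild-type NSC 0 of the 69 passed. There the smallest p belonged to Cntn1 (-2.31) and Notch4 (-0.74), to Dtx3 (-1.08, adjusted p = 0.0825) and Neurl1a (1.55, adjusted p = 0.0825), to Hdac1 (0.60) and Cir1 (-0.47), to Tle2 (0.89) and Bhlhe40 (1.21), and to Myt1 (-2.49, adjusted p = 0.0900) and Neurog1 (-2.36).

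Markers of cell identity differed between the groups as well. The counts below stand beside shares over all genes of 3.46% higher and 5.6% lower against wild-type NSC. Against Nf1-null NSC the shares were 0.671% higher and 1.08% lower, and between the NSC groups 0% of all genes passed. Of 10 neural stem cell and radial glial markers, 0 rose and 3 fell in glioma stem cells relative to wild-type NSC, Msi1 (2.18-fold), Slc1a3 (2.21-fold) and Sox9 (2.59-fold). Nes was 2.79-fold higher without overlap and without passing (adjusted p = 0.0558), and 3 of the 10 were positive. Summed signals of the 10 were 243969 to 289674 in glioma stem cells, 266207 to 300660 in Nf1-null NSC, against 260308 to 347641 in wild-type NSC. Of 7 astrocyte markers 3 fell, Aldh1l1, Aqp4 and Gja1, with summed signals of 81915.6 to 100648 in glioma stem cells, 79303.3 to 155358 in Nf1-null NSC, against 186971 to 233950 in wild-type NSC. Of 6 ependymal markers 3 fell, with sums of 657.1 to 1073.6, 1861.3 to 3360.2 and 2463.4 to 3846.4 in the same groups. Of 8 oligodendrocyte precursor markers 0 passed, with sums of 140028 to 151627 in glioma stem cells, 87094.4 to 111109 in Nf1-null NSC, against 133654 to 150421 in wild-type NSC. Relative to Nf1-null NSC 2 of these 8 rose in glioma stem cells, Pcdh15 and Lhfpl3, all 8 were positive and their median log2 difference was 1.96. Between Nf1-null and wild-type NSC 0 passed, all 8 were negative and the median was -1.92. The 3 astrocyte markers named also fell relative to Nf1-null NSC. S100b went the other way without overlap and without passing. It was at 1.95 from wild-type NSC (adjusted p = 0.0656) and at 2.46 from Nf1-null NSC (adjusted p = 0.0809). Of the 7 astrocyte markers 1 was positive against wild-type NSC and 3 against Nf1-null NSC. Of 10 endothelial markers 1 fell relative to wild-type NSC, Emcn, with sums of 713.8 to 907.7 in glioma stem cells, 962.3 to 1301.9 in Nf1-null NSC, against 830.7 to 1191.7 in wild-type NSC. Of 10 microglial markers 0 passed, with sums of 815.3 to 1336.3 in glioma stem cells, 867.8 to 1142.6 in Nf1-null NSC, against 919.8 to 1287.6 in wild-type NSC. Of 8 neuronal markers 1 rose and 2 fell, with sums of 6936.7 to 9135.8 in glioma stem cells, 4887.3 to 6453.5 in Nf1-null NSC, against 6383.7 to 9192.1 in wild-type NSC. The ratio of 3' to 5' Actb signal, a check of RNA quality, was 1.73 to 1.85 in glioma stem cells, 1.49 to 1.67 in Nf1-null NSC, against 1.87 to 1.88 in wild-type NSC. The part of these differences in the Notch results was not tested.

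Genes whose pattern over the 9 arrays was most like that of a Notch gene were sought among the 9097 brighter genes, for the 4 that passed, by Pearson's r of log2 signals. These are descriptions over arrays that share their groups. Nearest to Notch2 were Kdm1a (r = 0.993), Apc (0.987) and Map2 (0.984). Nearest to Hes1 were Adamts5 (0.985), Camk1 (0.972) and Pdgfa (0.965), which had mean signals of 4740, 3236 and 9615 in glioma stem cells, against 412.2, 710.1 and 1220 in wild-type NSC. Nearest to Hey1 were Mok (0.987), Dynlrb2 (0.986) and Msi1 (0.984). Dynlrb2 and Msi1 are among the ependymal and neural stem cell markers above. Nearest to Hey2 were Flrt2 (0.986), Fgd4 (0.981) and Pacrgl (0.973).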

How the data were processed

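The deposited intensity values of 9 arrays, 3 per group, are linear, with 1 value per probe set. Their trimmed mean was 1500 on every array, and which software produced them is not stated in the sources used here. Labelling started with 100 ng of RNA, per the labels. Probe sets with exactly 1 gene symbol (34945 of 45101) were kept, and the brightest by mean stood for each of 18193 genes. Values were turned into log2(value + 1) and fitted in limma 3.58.1 (R 4.3.3) with 3 group means, 6 residual and 1.63 prior degrees of freedom, without a mean-variance trend. P-values are two-sided and adjusted by Benjamini-Hochberg over all genes. Fold values are on the log2(value + 1) scale. The model was tested on simulated data.

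The 10 genes, the other lists and the tests were chosen with earlier results of these data known. Text names all 10 genes; of the other lists, the 6 genes past the threshold with the smallest p per comparison, or 2 with the smallest p where a list had none; and the 3 genes most like each called Notch gene. No detection calls were used, so a dim probe set was not marked as absent. The number of arrays limits the precision.

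Same-numbered arrays were checked for pairing by correlating deviations from group means across the brighter genes. For Nf1-null with wild-type NSC the correlations were 0.64, 0.24 and 0.59, so those arrays were taken as pairs; the labels do not state it. For glioma stem cells with wild-type NSC they were 0.24, 0.05 and 0.20, which were not taken as pairs. With Nf1-null NSC they were 0.30, 0.12 and 0.11, all over 0.1 as the rule for pairs asks. Differently numbered arrays reached 0.11 and these groups come from different mice, so pairing is not shown there. The main fit has no block. Figures were drawn with matplotlib 3.10.9.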

Additional observations from a re-analysis of the deposited data

How the results depend on the processing

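Of 594 values of the 10 genes' differences under 20 alternatives, 536 kept direction and side of the threshold, 27 newly passed, 24 no longer passed and 7 changed sign. Values that changed sign were near 0 or of wide error: Notch1 between glioma stem cells and Nf1-null NSC (0.00) was -0.027 with the mean of all probe sets and -0.29 to 0.17 leaving out 1 array, Hes5 in that comparison was -1.34 to 0.57, and Hes1 between Nf1-null and wild-type NSC was -0.055 to 0.22. Quantile normalization and shifting arrays to 1 median kept every count of Notch genes. In glioma stem cells relative to wild-type NSC the count of 4 became 7 with the mean-variance trend, 1 in the 6 arrays compared, and 0 to 6 leaving out 1 array. Between glioma stem cells and Nf1-null NSC the count of 0 became 2 among the brighter genes and 2 with the trend, and 0 to 3 leaving out 1 array. With the replicate block 3, 0 and 0 Notch genes passed for glioma stem cells over wild-type NSC, glioma stem cells over Nf1-null NSC and Nf1-null over wild-type NSC, Hes1 being lost at adjusted p = 0.0538. With the block among the brighter genes these were 7, 3 and 2. Of the 69 other pathway genes only part lie among the brighter genes, 2, 23, 12, 7 and 4 in the 5 lists. Of that part the block among brighter genes gave 22, 9 and 5, where 33.1%, 10.4% and 11.9% of all brighter genes passed. The main fit gave 13, 1 and 0 of the 69, where 9.06%, 1.75% and 0% of all genes passed. Between glioma stem cells and Nf1-null NSC the pathway count of 1 was 2 with the mean of all probe sets or a pseudocount of 16. There 149 and 388 of all 18193 genes passed. The pathway count was 6 among brighter genes, 4 without the dimmest 25% of genes and 5 with the trend. Of all genes tested in these settings 6.67%, 536 of 13645 and 4.05% passed. Leaving out 1 array gave 1 to 5, where 72 to 721 of all genes passed. Between the NSC groups the pathway count was 4 among brighter genes, 3 without the dimmest 25% and 3 with the trend. Of all genes tested there 4.38%, 136 of 13645 and 1.81% passed. For glioma stem cells over wild-type NSC, leaving out 1 array gave 2 to 16 pathway genes, where 214 to 1756 of all genes passed. Over all genes, the brighter genes alone gave 398 calls between the NSC groups, against 0, and 607 between glioma stem cells and Nf1-null NSC, against 319. The cause of these shifts was not tested. Dim signals limit Hey2, Notch4, Neurog2, Neurod1 and Neurl1b.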
